A study of Mus musculus with 6 samples.

Results

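The tumour suppressor gene Trp53, which encodes p53, and 9 genes that p53 is known to switch on were followed in mouse T cells made into regulatory T cells (Tregs) in culture. The 9 targets were Cdkn1a, Mdm2, Ccng1, Sesn1, Perp, Phlda3, Zmat3, Trp53inp1 and Plk2. They were chosen by name, with earlier results of these data known. All 10 were found among the 39179 gene identifiers of the count files and all 10 passed the filter on low counts, which kept 14928 genes. Treated cells were cultured with DEL-1-Fc and control cells with Fc, with 3 libraries each. DEL-1 is a secreted protein that binds integrins, and Fc is the antibody part to which it was fused. All cells began as naive splenic CD4+ cells of wild-type C57BL/6 mice aged 6 weeks and spent 3 days in culture. Both groups were driven towards the Treg state with 5 ng/ml TGF-β1 and 40 ng/ml IL-2, on top of stimulation through 1 µg/ml anti-CD28 and coated anti-CD3 (2 per ml, its unit prefix unreadable in the labels). The labels do not give the amount of DEL-1-Fc, nor whether replicates came from separate mice or cultures. The p-values below therefore rest on library-to-library spread alone, and that spread may be technical.

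p53 is a transcription factor that is held at a low level by MDM2, the ubiquitin ligase that marks it for degradation. Stress such as DNA damage or nutrient shortage frees p53 from MDM2, mostly without a change in Trp53 mRNA, and p53 then raises genes that stop the cell cycle, repair DNA, adjust metabolism or kill the cell. Mdm2 is itself a target, which closes a feedback loop. In T cells p53 is known to restrain proliferation after antigen receptor signals and to be able to favour Foxp3 expression. Most of its targets also answer to other factors, so their mRNA levels are not a measure of p53 activity alone.

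The polyA RNA-seq libraries held 33364166 to 61967687 counts, and DEL-1-Fc replicate 1 was the shallowest. That library also stood apart from DEL-1-Fc replicates 2 and 3 on both leading principal components of log CPM. On the first, with 44% of the variance, it lay at 47.7 against 14.3 and 12.8, and the Fc libraries at -27.5 to -22.7. On the second, with 23.3%, it lay at 27.9 against -28.7 and -23.7, and the Fc libraries at 4.38 to 11.5. CPM is the usual library-size-normalised read count, here with TMM-scaled library sizes. T cell markers were abundant, with summed levels of 2210 to 2461 CPM in DEL-1-Fc, against 2111 to 2178 CPM in Fc over 6 genes, of which 1 was called higher. The 3 Treg markers Foxp3, Il2ra and Ctla4 summed to 3185 to 3776 CPM in DEL-1-Fc, against 3179 to 3544 CPM in Fc, with Foxp3 called higher and Ctla4 lower. Summed markers of other cells were low: B cells 5.80 to 7.07 CPM in DEL-1-Fc, against 4.90 to 6.15 CPM in Fc over 5 genes, and myeloid, NK, erythroid and stromal lists each between 0.0529 and 0.658 CPM in every library, with Ncr1, Hbb-bs, Col3a1 and Pdgfra at 0 counts in all 6. The 2 CD8 markers summed to 11.9 to 12.8 CPM in DEL-1-Fc, against 10.1 to 10.4 CPM in Fc. Of these, Cd8a was called higher (log2 fold change, DEL-1-Fc over Fc, of 0.78, edgeR adjusted p = 0.00607). Cd8b1 was not called (0.04, edgeR adjusted p = 0.846). Over all tested genes, 6.4% were called higher and 6.22% lower. The 5 dendritic cell markers summed to 6.51 to 7.06 CPM in DEL-1-Fc, against 8.91 to 9.02 CPM in Fc, nearly all of it Zbtb46, which was called lower, with Siglech at 0 counts. Their part in the differences below was not tested.

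The start regions of the genes were searched for the p53 site, and a stretch is shown for the 5 genes with a match. The windows of Phlda3 and Plk2 held none. Any link between a match and the differences below was not tested. The p53 consensus is a 10-base element that reads the same on both strands, and a full site is made of 2 such elements. RefSeq promoter windows (GRCm38.p6, 250 bases before to 50 after a start) were found for 7 of the 10 genes, in 9 windows. Perp, Zmat3 and Trp53inp1 were not matched. The 10-base element occurred in 5 of the 9 windows, each of a different gene, and in 8.36% of all 32851 windows. A full site of 2 elements end to end, with at most 1 mismatch outside the fixed C and G of each element, occurred in 22 of all windows (0.067%). The upstream Cdkn1a window and the Ccng1 window were among these 22. The upstream Cdkn1a window was also among the 24 windows (0.0731%) with 2 perfect elements separated by at most 13 bases, since a further element lies just before its full site. The window at the downstream Cdkn1a start held no element. Capitals mark the elements and full sites, which lie 73 to 32 bases before the upstream start in Cdkn1a and 195 to 176 bases before it in Ccng1. In Mdm2 and Trp53 a single element lay 186 to 177 and 75 to 66 bases before the start, and in Sesn1 173 to 164 bases before the more downstream of its starts.
Cdkn1a promoter, chr17:29090886-29090978, plus strand: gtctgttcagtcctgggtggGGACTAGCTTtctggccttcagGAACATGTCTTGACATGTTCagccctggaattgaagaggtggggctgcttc
Ccng1 promoter, chr11:40755413-40755512, minus strand: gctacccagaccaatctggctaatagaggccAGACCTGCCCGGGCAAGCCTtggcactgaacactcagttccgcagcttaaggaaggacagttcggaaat
Mdm2 promoter, chr10:117710881-117710980, minus strand: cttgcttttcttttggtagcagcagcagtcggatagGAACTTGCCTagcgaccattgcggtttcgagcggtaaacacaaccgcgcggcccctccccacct
Sesn1 promoter, chr10:41887230-41887329, plus strand: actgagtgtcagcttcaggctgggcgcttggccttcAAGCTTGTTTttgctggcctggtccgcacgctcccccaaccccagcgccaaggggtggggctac
Trp53 promoter, chr11:69580248-69580347, plus strand: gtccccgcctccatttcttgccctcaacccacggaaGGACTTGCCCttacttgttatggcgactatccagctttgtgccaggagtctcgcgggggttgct
The Cdkn1a full site is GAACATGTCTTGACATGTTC, with 1 mismatch. A match in these letters is a description of the sequence and not a measured binding site, and the known p53 sites of other targets can lie outside these windows.

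Trp53 mRNA itself was not detectably different. It measured 345, 298 and 287 CPM in DEL-1-Fc replicates 1 to 3, against 298, 297 and 276 CPM in Fc. The highest value was in DEL-1-Fc replicate 1 and the other libraries of both groups overlapped. The log2 fold change, DEL-1-Fc over Fc throughout, was 0.09 (SE 0.0816, 95% interval -0.09 to 0.28, edgeR quasi-likelihood adjusted p = 0.503). Without DEL-1-Fc replicate 1 it was 0.01. Trp53 (ENSMUSG00000059552) lies on the plus strand of chromosome 11 from 69580359 to 69591873 in GRCm38, the build of all positions given here, and overlaps no other annotated gene, and 9.49% of the 31-base words of its longest transcript occur in another gene.

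Of the 9 targets, 6 were lower in DEL-1-Fc, 2 were higher and Plk2 was not called. Over the 10 genes together, 80% were called (adjusted p under 0.05), against 12.6% of all tested genes. By direction, 6 of the 10 were called lower against 6.22% of all genes, and 2 of the 10 higher against 6.4%. The libraries of the groups did not overlap for 8 of the 10 genes, against 34.8% of all tested genes. The median log2 fold change of the 10 was -0.34, against 0.01 over all tested genes. Because the genes were picked with earlier results of these data known, among them the fall of Cdkn1a, this count is a description. Without Cdkn1a, 7 of 9 were called, 5 lower and 2 higher. In bulk RNA, fewer cells expressing a gene and less RNA per cell cannot be told apart.

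**Figure D1:**
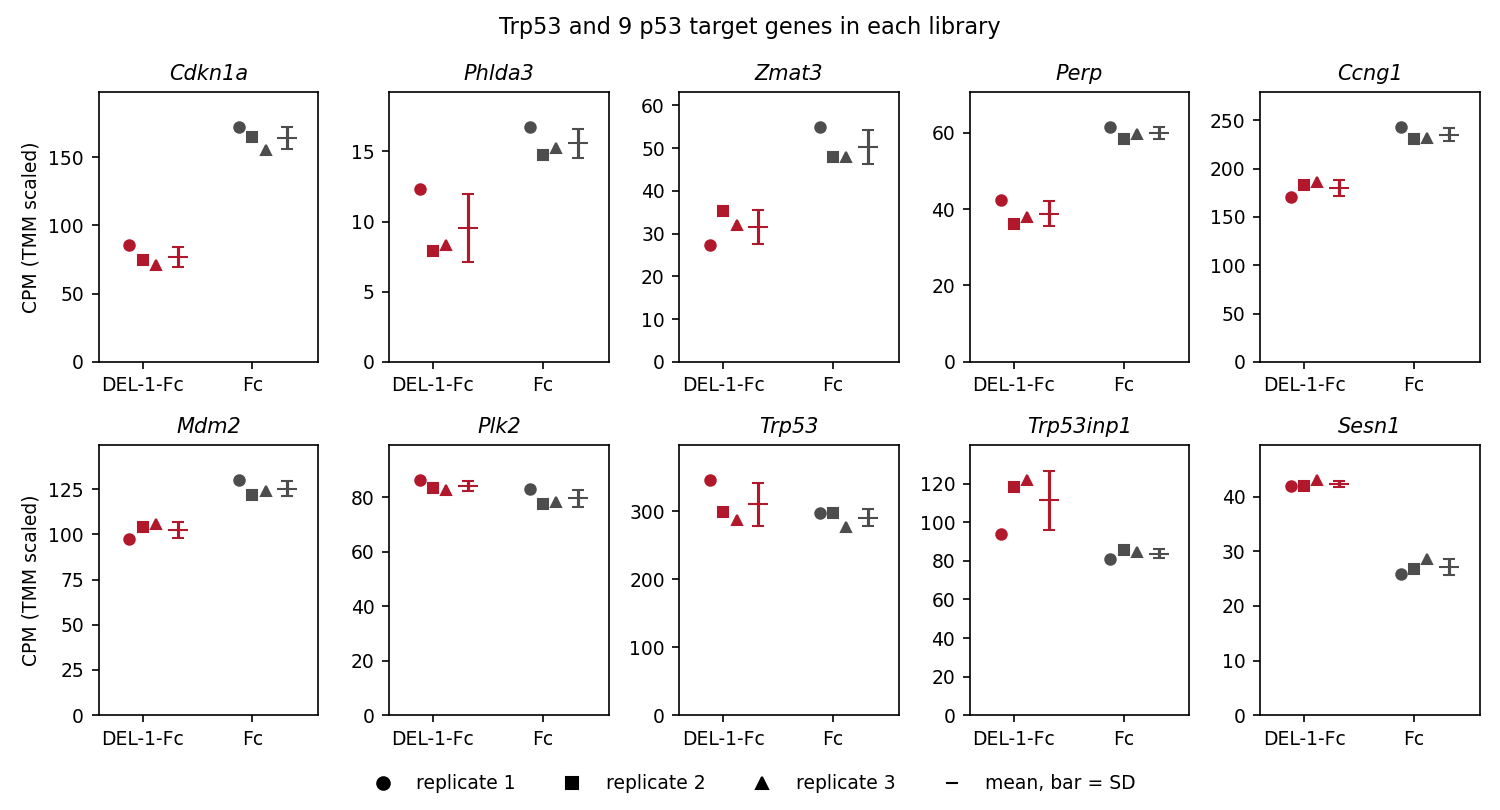
Level of each of the 10 genes in each library, in TMM-scaled CPM on axes that start at 0, ordered from the lowest to the highest log2 fold change. Symbols mark replicates, and the bar beside them is the mean with its SD (n = 3). The groups separate for every gene except Plk2 and Trp53.

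Cdkn1a and Ccng1, the targets grouped here under cell cycle arrest, both fell, while the kinase gene Plk2, described below, was not called. Cdkn1a encodes p21, the inhibitor of cyclin-dependent kinases (CDKs) through which p53 stops the cycle in G1. It measured 85.5, 74.4 and 70.9 CPM in DEL-1-Fc, against 172, 165 and 156 CPM in Fc. Every DEL-1-Fc library was well below every Fc library. Cdkn1a was 2.14-fold lower in DEL-1-Fc (log2 fold change -1.09, SE 0.0814, edgeR adjusted p = 0.000106), ranked 45 of 14928 genes by p, and 3.52% of tested genes had a larger absolute change. Cdkn1a (ENSMUSG00000023067) spans 29090976 to 29100727 on the plus strand of chromosome 17. There 273 of its exonic bases are shared with AC167363.2 on the other strand, which is not among the counted gene identifiers. Of its 31-base words, 11.3% were found in another gene, on either strand, and words of this overlap can be among them. The overlap and the shared words are therefore not separate limits, and part of the Cdkn1a reads is uncertain. Ccng1, cyclin G1, is one of the most consistently induced p53 targets and helps a phosphatase to activate MDM2. It measured 171, 183 and 186 CPM in DEL-1-Fc, against 243, 231 and 232 CPM in Fc. The groups did not overlap, and Ccng1 was 1.31-fold lower (log2 fold change -0.39, SE 0.0614, edgeR adjusted p = 0.00408). Ccng1 (ENSMUSG00000020326) spans 40748552 to 40755311 on the minus strand of chromosome 11.

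Mdm2, the ligase of the feedback loop, fell by a smaller amount. It measured 97.4, 104 and 106 CPM in DEL-1-Fc, against 129.8, 122 and 124 CPM in Fc. The groups did not overlap, and Mdm2 was 1.22-fold lower (log2 fold change -0.29, SE 0.0604, edgeR adjusted p = 0.015). The call was lost when Fc replicate 1, 2 or 3 was left out (adjusted p = 0.0926, 0.0568 and 0.0706). Mdm2 (ENSMUSG00000020184) spans 117688875 to 117710758 on the minus strand of chromosome 10.

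The genes tied to survival and death moved in both directions. Perp, a membrane protein of the PMP22 family that p53 induces during apoptosis, measured 42.3, 36.1 and 37.9 CPM in DEL-1-Fc, against 61.4, 58.4 and 59.7 CPM in Fc. All DEL-1-Fc libraries were below all Fc libraries. Perp was 1.55-fold lower (log2 fold change -0.63, SE 0.0733, edgeR adjusted p = 0.000836). Phlda3, a PH-domain protein that represses the survival kinase AKT, measured 12.3, 7.93 and 8.35 CPM in DEL-1-Fc, against 16.7, 14.7 and 15.2 CPM in Fc. DEL-1-Fc replicate 1 lay between the other DEL-1-Fc libraries and the Fc libraries. Phlda3 was 1.64-fold lower (log2 fold change -0.71, SE 0.161, edgeR adjusted p = 0.0215). The Phlda3 log2 fold change was -0.94 without DEL-1-Fc replicate 1 (adjusted p = 6.77e-05), and the call was lost when any other library was left out (adjusted p = 0.0509 without DEL-1-Fc replicate 2, 0.0844 without DEL-1-Fc replicate 3, and 0.103, 0.0619 and 0.0684 without Fc replicates 1, 2 and 3).

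Trp53inp1 encodes a stress protein that binds kinases acting on p53 and also takes part in autophagy. It measured 93.9, 119 and 122 CPM in DEL-1-Fc, against 81.1, 85.4 and 84.7 CPM in Fc. DEL-1-Fc replicate 1 was the lowest of its group but still above all Fc libraries. Trp53inp1 was 1.33-fold higher (log2 fold change 0.41, SE 0.0956, edgeR adjusted p = 0.0236). The rise was 0.52 without DEL-1-Fc replicate 1 (adjusted p = 5.03e-05), and its call was lost without DEL-1-Fc replicates 2 or 3 (adjusted p = 0.0562 and 0.0844) or Fc replicates 1, 2 or 3 (0.117, 0.0808 and 0.0839). Perp (ENSMUSG00000019851) spans 18845020 to 18857073 on chromosome 10, Phlda3 (ENSMUSG00000041801) spans 135766119 to 135769136 on chromosome 1, and Trp53inp1 (ENSMUSG00000028211) spans 11156431 to 11174379 on chromosome 4, all on the plus strand.

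Sesn1, a p53-regulated sestrin, rose. Sestrins sense amino acid shortage and oxidants and hold back the growth kinase complex mTORC1. Sesn1 measured 42.0, 42.1 and 43.0 CPM in DEL-1-Fc, against 25.8, 26.7 and 28.6 CPM in Fc. The DEL-1-Fc libraries were nearly equal and all above Fc. Sesn1 was 1.57-fold higher (log2 fold change 0.65, SE 0.0659, edgeR adjusted p = 0.000445). Sesn1 (ENSMUSG00000038332) spans 41809935 to 41908424 on the plus strand of chromosome 10 and contains 9930024M15Rik on the same strand, with no exonic base in common.

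Zmat3, an RNA-binding zinc finger protein that acts in splicing and mRNA stability downstream of p53, fell. It measured 27.3, 35.3 and 31.996 CPM in DEL-1-Fc, against 54.9, 48.0 and 48.0 CPM in Fc, with DEL-1-Fc replicate 1 the lowest. The groups did not overlap, and Zmat3 was 1.59-fold lower (log2 fold change -0.67, SE 0.101, edgeR adjusted p = 0.00309). Plk2, a polo-like kinase that acts in centriole duplication and the stress response, measured 86.2, 83.5 and 82.6 CPM in DEL-1-Fc, against 83.0, 77.5 and 78.3 CPM in Fc. The groups overlapped in 1 library of each, and the log2 fold change of 0.08 (SE 0.0585, 95% interval -0.05 to 0.21, edgeR adjusted p = 0.429) did not pass. Zmat3 (ENSMUSG00000027663) spans 32334792 to 32366014 on the minus strand of chromosome 3 and Plk2 (ENSMUSG00000021701) spans 110395046 to 110400844 on the plus strand of chromosome 13.

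**Figure D2:**
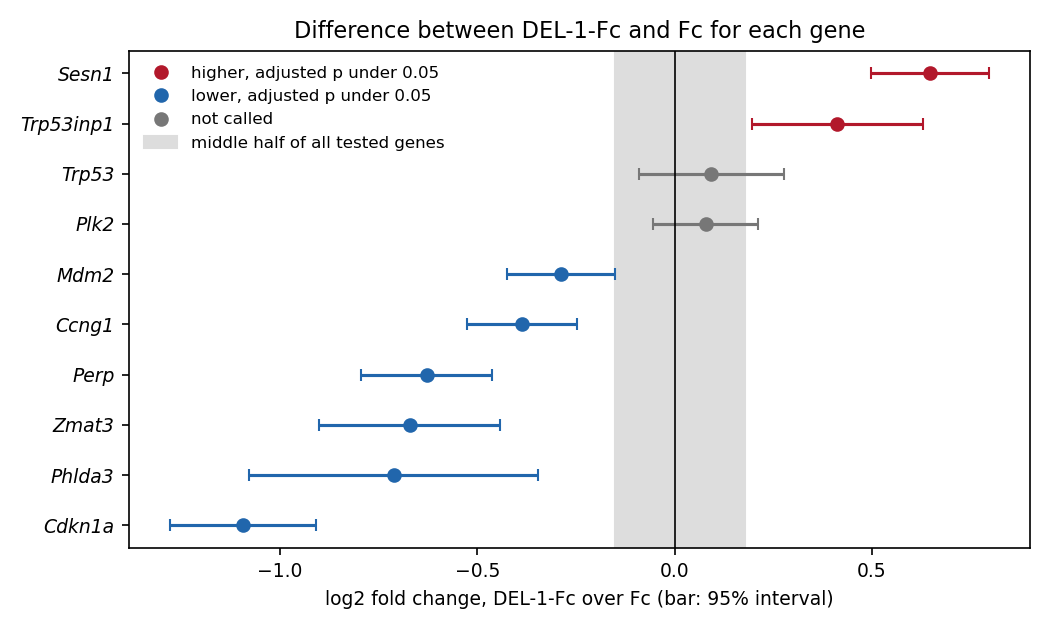
Log2 fold change of each of the 10 genes, DEL-1-Fc over Fc, with its 95% interval from the edgeR fit (n = 3 libraries each). The grey band spans the 25th to 75th percentile of all tested genes, -0.15 to 0.18, and Cdkn1a lies farthest from it at -1.09.

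The genes differed among themselves in where DEL-1-Fc replicate 1 lay. In log2 CPM relative to each gene's own mean of the 6 libraries, that replicate was the least reduced DEL-1-Fc library for Cdkn1a (-0.39, against -0.59 and -0.66 in DEL-1-Fc replicates 2 and 3), Perp (-0.18, against -0.42 and -0.34) and Phlda3 (0.03, against -0.60 and -0.53). It was the most reduced for Zmat3 (-0.54, against -0.17 and -0.31), Ccng1 (-0.27, against -0.17 and -0.15) and Mdm2 (-0.22, against -0.12 and -0.10). Without it, all 6 falls and both rises were still called, with Cdkn1a at -1.18, Perp at -0.69, Ccng1 at -0.35, Mdm2 at -0.25, Zmat3 at -0.58 and Sesn1 at 0.65. The calls of Cdkn1a, Ccng1, Perp, Sesn1 and Zmat3 held in all 17 alternative fits, those without each library in turn included, with a highest adjusted p of 0.034 (Ccng1).

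**Figure D3:**
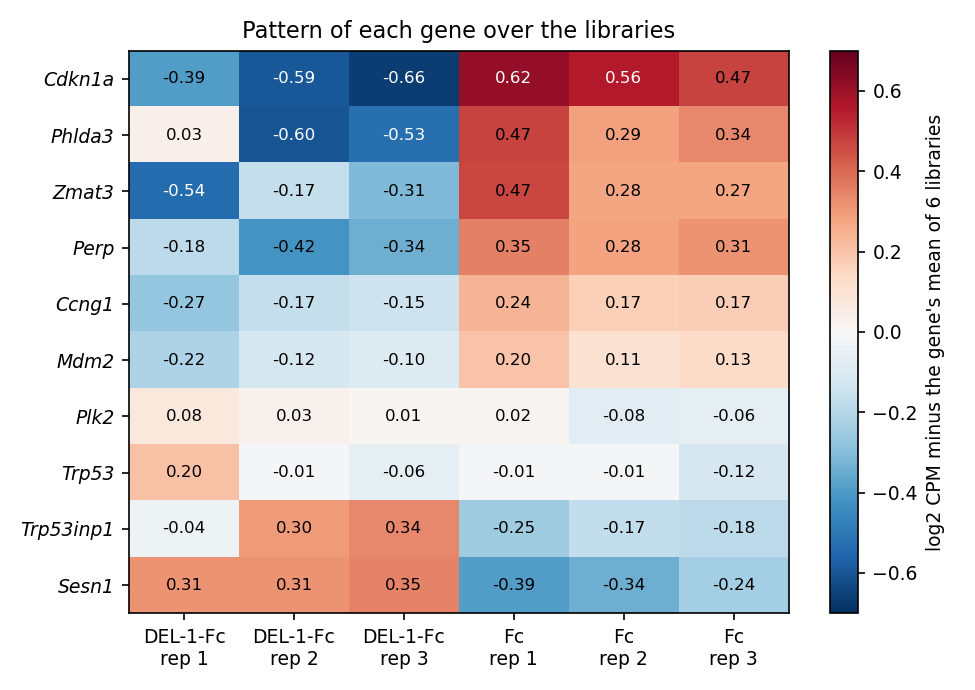
Log2 CPM of each gene minus its own mean of the 6 libraries. Rows run from the lowest to the highest fold change, and red is above and blue below the gene's mean. Cdkn1a spans -0.66 to 0.62, while Plk2 stays between -0.08 and 0.08.

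Levels of different genes were compared per exon length, as CPM per kb of merged exons. In DEL-1-Fc the order was Trp53 (76.7 ± 7.68 CPM per kb, SD, n = 3), Ccng1 (51.2 ± 2.33), Cdkn1a (21.7 ± 2.15), Mdm2 (20.2 ± 0.883), Perp (19.9 ± 1.65), Plk2 (18.7 ± 0.421), Trp53inp1 (17.2 ± 2.35), Sesn1 (10.6 ± 0.136), Phlda3 (6.12 ± 1.56) and Zmat3 (2.76 ± 0.351). Neighbours from Cdkn1a down to Trp53inp1 overlapped between libraries and could not be ordered. In Fc, Cdkn1a ranked 3 at 46.2 ± 2.32 CPM per kb, between Ccng1 at 67.0 ± 1.90 and Perp at 30.7 ± 0.769 (SD, n = 3). Trp53 at 71.8 ± 3.03 CPM per kb in Fc overlapped Ccng1, and below Ccng1 every gene was separated from the next. Sesn1 was above Phlda3 in DEL-1-Fc, and below it in Fc (6.79 ± 0.368 against 9.99 ± 0.661 CPM per kb). Trp53 was at the 95.1 percentile of all tested genes by mean level per length over the 6 libraries, Cdkn1a at the 87.8 and Zmat3 at the 44.3.

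**Figure D4:**
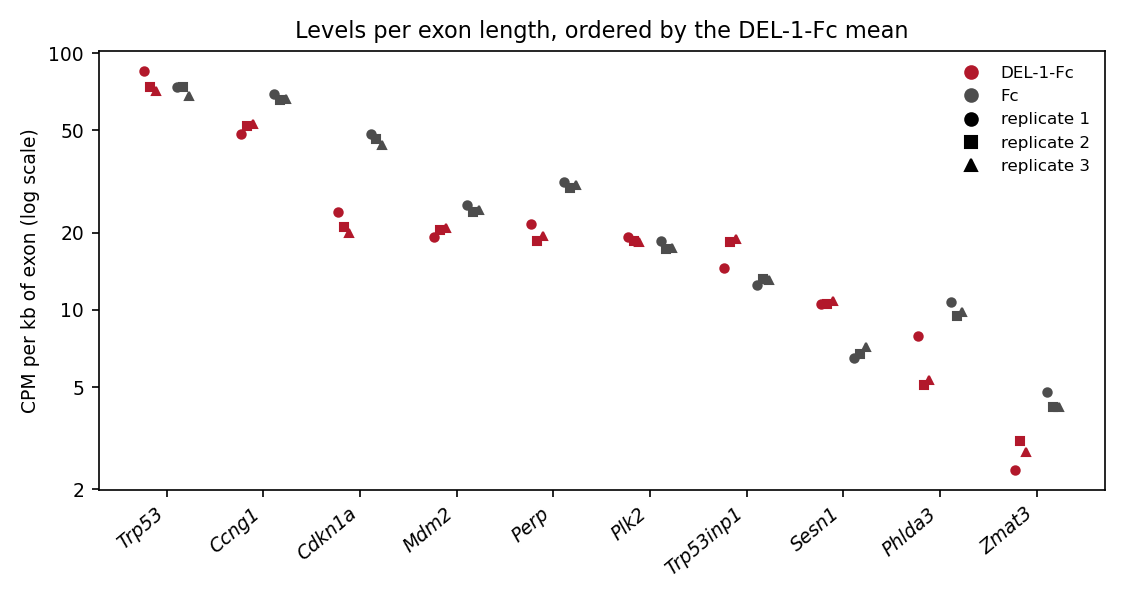
CPM per kb of exon for the 10 genes in each library, on a log axis, ordered by the DEL-1-Fc mean. DEL-1-Fc points stand left of Fc points for each gene, and Cdkn1a joins the group near 20 CPM per kb in DEL-1-Fc, while it lies between 43.8 and 48.4 CPM per kb in Fc.

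Close relatives of the 10 genes moved in both directions. Sesn2, the sestrin that also answers to the amino acid stress factor ATF4, measured 19.3, 17.04 and 16.8 CPM in DEL-1-Fc, against 45.5, 43.0 and 41.0 CPM in Fc. It was 2.44-fold lower (log2 fold change -1.29, SE 0.0793, edgeR adjusted p = 6.24e-05), while Sesn1 rose. Sesn3 had a log2 fold change of -0.21 and did not pass (adjusted p = 0.13). Among the polo-like kinases, Plk3 fell (log2 fold change -0.42, SE 0.0716, edgeR adjusted p = 0.00553). Plk1 (-0.01, edgeR adjusted p = 0.945) and Plk4 (0.01, edgeR adjusted p = 0.92) did not pass. Nor did Trp53inp2, a relative of Trp53inp1 (-0.23, edgeR adjusted p = 0.145). Phlda1, a relative of Phlda3, was also lower (-0.60, SE 0.105, edgeR adjusted p = 0.00676), and 34.9% of its 31-base words occur in another gene. Ccng2, the FOXO-driven relative of Ccng1, was higher (0.28, SE 0.0763, edgeR adjusted p = 0.047), but this call was lost in 10 of 17 alternative fits, among them those without each Fc replicate in turn and without DEL-1-Fc replicates 2 or 3 (highest adjusted p = 0.196). Of 13 tested relatives, 3 rose and 3 fell (46.2% called, against 12.6% of all genes), and the other risers were Cdkn1b and Cdkn1c. This list and those below were chosen with earlier results of these data known, so their counts are descriptions. Cdkn1b and Cdkn1c are counted again among the CDK inhibitors, and Sesn2 among the wider targets.

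The other CDK inhibitors were higher or not called. Of 5 tested, 3 rose and 2 did not pass the edgeR test (60% called, against 12.6% of all genes), and all 5 had a positive log2 fold change (median 0.33). The list went by gene name. The 2 that did not pass were Cdkn2d (0.24, edgeR adjusted p = 0.284) and Cdkn3 (0.33, edgeR adjusted p = 0.058). Cdkn3 encodes a phosphatase that acts on CDKs, and its value is the median. Cdkn2d was at 0.06 without DEL-1-Fc replicate 1, and Cdkn3 passed in 3 of 17 alternative fits. Cdkn2c, the inhibitor p18 of CDK4 and CDK6, measured 50.8, 45.8 and 42.2 CPM in DEL-1-Fc, against 29.6, 35.7 and 33.8 CPM in Fc (log2 fold change 0.49, SE 0.094, edgeR adjusted p = 0.0105). The libraries did not overlap. Cdkn1b, the inhibitor p27, was 1.22-fold higher (0.29, SE 0.0769, edgeR adjusted p = 0.0408). Cdkn1c, the imprinted inhibitor p57, rose from a low level (1.06 ± 0.123 CPM in DEL-1-Fc libraries, against 0.517 ± 0.133 CPM in Fc libraries, SD, n = 3; log2 fold change 1.04, SE 0.235, edgeR adjusted p = 0.0215), and 28.4% of its 31-base words occur in another gene. Without Fc replicate 1 all 3 calls were lost (adjusted p = 0.056, 0.163 and 0.0859 for Cdkn2c, Cdkn1b and Cdkn1c), as was that of Cdkn1b without each other library except DEL-1-Fc replicate 1, and that of Cdkn1c without Fc replicate 3 or DEL-1-Fc replicates 2 or 3. Cdkn2a and Cdkn2b had at most 7 counts in any library and were not tested.

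A wider list, also chosen with earlier results of these data known, held 41 further p53 targets. Of 38 tested, 11 fell, 2 rose and 25 did not pass, so 34.2% were called against 12.6% of all tested genes. The median log2 fold change was -0.08, against 0.01 over all tested genes. The fallers with the smallest p were Sesn2, then Pml, which organises nuclear bodies and is also an interferon target (log2 fold change -0.62, SE 0.065), Psrc1, a spindle protein (-0.56, SE 0.0801), and Tnfrsf10b, the TRAIL death receptor (-0.69, SE 0.112). The risers were Btg2, an antiproliferative factor (0.46, SE 0.082), and Ephx1, an epoxide hydrolase (0.38, SE 0.0906). The count of calls was 7, 7 and 8 without Fc replicates 1, 2 and 3, in fits that called 5.95%, 6.4% and 6.32% of all genes. Among the fits with 1 library left out, the Ephx1 call was lost in these 3 and without DEL-1-Fc replicate 2 (highest adjusted p = 0.132).

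By role, 4 of 10 tested apoptosis genes of the wider list fell and 6 did not pass the edgeR test, while 6.22% of all tested genes fell. Named after their values were seen, these were Tnfrsf10b, Apaf1, the scaffold of the apoptosome (-0.35, SE 0.0701), and the BH3-only genes Bbc3, known as PUMA (-0.54, SE 0.128), and Pmaip1, known as NOXA (-0.54, SE 0.0986). The Bbc3 call was lost without each Fc replicate in turn and without DEL-1-Fc replicates 2 or 3 (highest adjusted p = 0.106), that of Pmaip1 without Fc replicate 3 (0.052), and that of Apaf1 without Fc replicates 1 or 2 (highest 0.0655). Bax (0.01, 95% interval -0.34 to 0.35), Fas (-0.07) and Aen (-0.07), also apoptosis genes of this list and likewise named after their values were seen, did not pass. With 1 library left out these values ran from -0.19 to 0.14 for Bax, from -0.12 to 0.00 for Fas and from -0.09 to -0.02 for Aen. Of 10 metabolic and stress genes 3 fell and 1 rose, of 6 cell cycle arrest genes 2 fell and 1 rose, of 4 repair and nucleotide genes 1 fell, and the 3 genes of p53 turnover did not pass. Over all tested genes 6.22% fell and 6.4% rose.

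Among the listed regulators upstream of p53, little was called. Mdm2, Ccng1 and Trp53inp1, described above as acting on p53 or MDM2, were counted as targets and not here. Mdm2 and Ccng1 were called lower and Trp53inp1 higher, so the share below depends on how the lists were divided. Of 25 tested regulators, 1 fell and 24 did not pass, 4% called against 12.6% of all genes, with a median log2 fold change of -0.08. The 1 called was Daxx, a chromatin chaperone that binds MDM2 (140.1 ± 4.13 CPM in DEL-1-Fc libraries, against 219 ± 10.7 CPM in Fc libraries, SD, n = 3; -0.64, SE 0.0621, edgeR adjusted p = 0.000356). Hipk2, a kinase that phosphorylates p53, had a log2 fold change of 0.50 (adjusted p = 0.0551) and Mdm4, the MDM2 partner, -0.12 (adjusted p = 0.681). Usp7, the deubiquitinase of MDM2 and p53, had -0.13 (adjusted p = 0.206). Without DEL-1-Fc replicate 1, 4 regulators were called, in a fit that called 19.7% of all genes. In that fit Mdm4 turned to 0.06 and Hipk2 passed at 0.61 (adjusted p = 0.0497), while without DEL-1-Fc replicate 2 Hipk2 was at 0.30 (adjusted p = 0.0538). DESeq2 called 3 regulators and 16.3% of all genes, and Hipk2 was again among them (log2 fold change 0.50, adjusted p = 0.00774).

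Cell cycle genes that p21 is known to lower through the DREAM repressor complex showed almost no calls. Of 19 tested, 1 rose and 18 did not pass (5.26% called, against 12.6% of all genes), with a median log2 fold change of 0.04. The share of 31-base words found in another gene ran from 0%, as for Ccnb2, Bub1 and Kif23, to 46.9% for Ccnb1. For some of the list, part of the reads is therefore uncertain. The riser was Ccnb2, cyclin B2 (132 ± 3.87 CPM in DEL-1-Fc libraries, against 107 ± 3.80 CPM in Fc libraries, SD, n = 3; 0.30, SE 0.0582, edgeR adjusted p = 0.00986), and its call was lost without Fc replicates 1 or 3 (highest adjusted p = 0.0717). Ccna2, cyclin A2 (0.12), Top2a, topoisomerase II (0.13), and Mcm5, a replication helicase subunit (0.24), did not pass. Every gene named here had a positive log2 fold change, but of the 19 genes 12 were positive and 7 negative. The negative share was 36.8%, against 48.6% of all tested genes. Without DEL-1-Fc replicate 1, 4 of the 19 were called, in a fit that called 19.7% of all genes. Top2a was 1 of these 4 (0.20, adjusted p = 0.0218), and Mcm5 was at 0.15 in that fit (adjusted p = 0.0513). With library sizes alone Mcm5 passed (0.27, adjusted p = 0.0482).

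**Figure D5:**
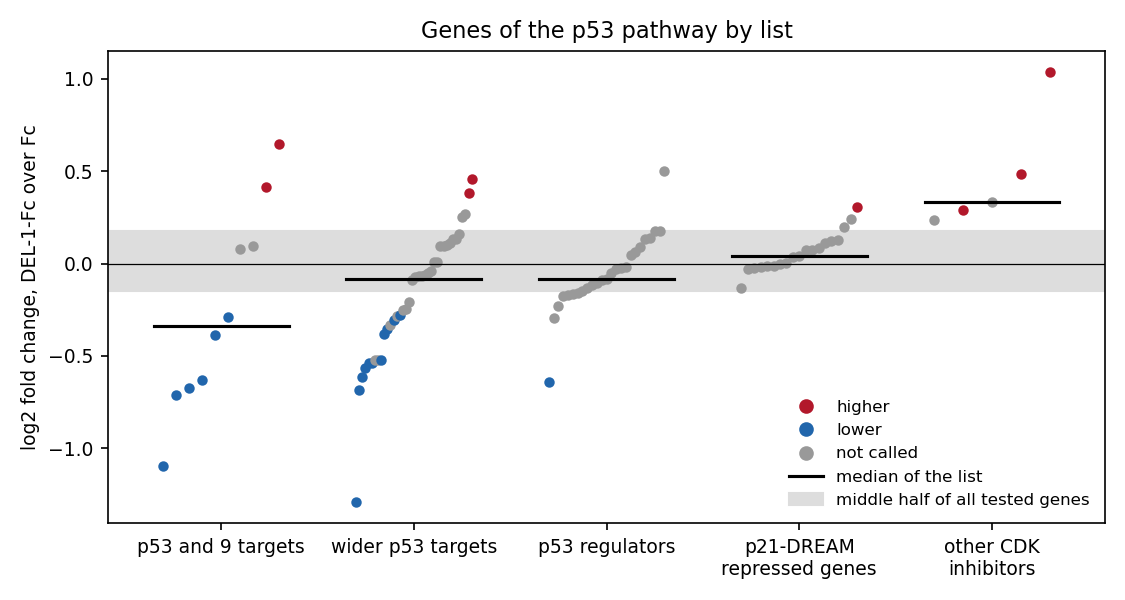
Log2 fold change, DEL-1-Fc over Fc, of every tested gene in 5 lists. Points are genes sorted within a list, black lines are list medians and the grey band is the 25th to 75th percentile of all tested genes. The 10 genes have a median of -0.34 and the other CDK inhibitors, with Cdkn3 counted among them, of 0.33.

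The genes most like Cdkn1a over the 6 libraries were Asns, asparagine synthetase, Slc15a3, a peptide transporter, and Tigit, an inhibitory receptor, among 9059 protein-coding genes with a mean of at least 5 CPM. Likeness is the root-mean-square difference of log2 CPM after each gene is centred on its own mean, and it was 0.0697, 0.0880 and 0.0894. For genes that differ between the groups, it depends largely on the fold change. The log2 fold changes were -1.16, -1.11 and -1.06, against -1.09 for Cdkn1a. Shared regulation was not tested. Asns was 2.23-fold lower in DEL-1-Fc (19.98 ± 2.50 CPM in DEL-1-Fc libraries, against 44.5 ± 1.28 CPM in Fc libraries, SD, n = 3). The nearest to Sesn1 were Pdlim5, Rcn1 and F2r (0.0477, 0.0478 and 0.0527). The nearest to Perp were Ebi3, a subunit of interleukin-27 and interleukin-35, Gadd45b, a stress gene, and Inpp5b, an inositol phosphatase (0.0416, 0.0443 and 0.0487).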

How the data were processed

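Gene counts were made by the authors from polyA RNA-seq of in vitro induced mouse Tregs, with STAR alignment, HTSeq 0.6.0 counting and the GRCm38/mm10 build, per the submitters' processing notes. For the annotation release, the strand setting and multiply matching reads, the sources used here say nothing. The share of 31-base words found in another gene was 27.6% for Mdm4, 16.5% for Ccna2 and 15.3% for Bax. It was 16.3% for both Tnfrsf10b and Foxp3, so part of the reads of these genes is uncertain too. Each deposited count file held 39179 gene identifiers, of which 37693 matched GENCODE M21 (GRCm38), which gave symbols, coordinates and exon lengths. The counts were deposited as whole reads per gene with no normalization. Library totals differed by 1.86-fold, and 3 counts, the upper limit that a count of 0 allows, correspond to 0.0490 to 0.0914 CPM. Such limits cover counting error only.

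The 3 DEL-1-Fc and 3 Fc libraries were compared with edgeR 4.0.16 (TMM scaling, filterByExpr with a minimum count of 10 and minimum total of 15, robust quasi-likelihood F-test), and p-values were adjusted by Benjamini-Hochberg over 14928 genes. An adjusted p under 0.05 was a call. Standard errors were taken as |log2 fold change| over the root of F. The method was tested on simulated data. These were drawn with the mean levels, spread and depths of the libraries, and no library was made to stand apart as DEL-1-Fc replicate 1 does. The 10 genes and all lists were chosen with earlier results of these data known. The genes named from the wider target and regulator lists are the 4 called genes with the smallest p in each direction, any tested CDK inhibitor or relative could be named, and the 3 genes nearest in profile are given for the 3 called genes with the smallest p. Apaf1, Bbc3, Pmaip1, Bax, Fas, Aen, Hipk2, Mdm4, Usp7, Ccnb2, Ccna2, Top2a and Mcm5 were singled out after their values were seen. Alternatives were other scalings and filters, DESeq2 1.42.0, limma 3.58.1 voom, no robust dispersion, a replicate block, removal of a length and GC trend (mgcv 1.9.3, 14757 genes), and leaving out each library.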

Additional observations from a re-analysis of the deposited data

How the results depend on the processing

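None of the 10 genes changed sign in any of 17 alternative fits. Over the resulting 170 values, 157 stayed on the same side of the threshold and 13 calls were lost, all of Mdm2, Phlda3 and Trp53inp1 when a library was left out. With 1 library left out, 4 to 6 of the 10 genes were called lower and 1 to 2 higher, 7 to 16 of the wider targets, 1 to 4 of the regulators and 0 to 4 of the p21-DREAM genes were called, and 901 to 3003 of all genes (5.95% to 19.7%). The regulator count was 3 with DESeq2, 2 with a replicate block, 3 with the length and GC trend removed and 3 with block and trend removal together, and the p21-DREAM count was 2 with library sizes alone. The count over all genes was 2429 with DESeq2 and 2633 with the length and GC trend removed. That trend removal lowered the share of calls that were higher to 36.6% (35.1% with the replicate block), against 50.7% in the edgeR fit as reported, and library sizes alone gave 59.8%. The cause was not tested. Reversed signs were seen for Bax (-0.0196 with limma-voom, -0.0142 with the replicate block, -0.0702 with block and trend removal together, -0.0622 with the trend removed, -0.19 to 0.14 with 1 library left out) and Mdm4 (-0.25 to 0.0621 with 1 library left out). Neither was called.

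Same-numbered libraries had correlations of deviations of 0.0163, 0.0885 and 0.0425, none above 0.1. DEL-1-Fc replicates 2 and 3 correlated best with the Fc library of the same number, but replicate 1 with Fc replicate 3 (0.0382). With values this small the numbers were not taken as pairs, and the replicate block is given as an alternative. With the replicate block 1510 genes were called, against 1884 without it, and 6 of the 10 genes were still lower, 2 higher and 11 of the wider list were called. Of the list genes named, Ephx1 lost its call with the block (adjusted p = 0.0701, 0.0718 with trend removal), Cdkn1b and Ccng2 with block and trend removal together (0.0549 and 0.0657), and Hipk2 passed (0.0334, 0.0116 with trend removal).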
